A study of Mus with 6 samples.

Results

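The genes described here are 32 markers of the cells that build a blood vessel of the brain: endothelial cells, pericytes and smooth muscle cells. They were chosen by symbol, as the rows of the expression table whose gene name is on a list of such markers, with no threshold on a level or a difference. All 32 were in the table of 54532 genes, each on 1 row. FPKM, the deposited unit, is a read level per gene length and per-library scaling factor. A mean of at least 0.5 FPKM was found for 31 of the 32 genes, which were tested among 16155 genes. The exception was Tagln. Each of the 32 is annotated as protein-coding, and they lie on 15 chromosomes.

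RNA was sequenced from mouse brain tissue labelled as basolateral amygdala, in 3 samples of wild-type mice (WT) and 3 samples of Cntnap4 knockout mice (KO, written CNTNAP4-/- in the design text). All 6 are labelled male. The labels do not state strain, age or the deleted part of Cntnap4, which encodes a neuronal adhesion protein. The series title names Lactobacillus reuteri, but no sample label gives a treatment, so the comparison is between genotypes alone. Samples are told apart only by number, so the spread between them may be partly technical.

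In a brain capillary, endothelial cells form the wall and are joined by tight junctions. They carry nutrient transporters and efflux pumps and make few pores or vesicles, which together form the blood-brain barrier. Pericytes sit on the outer face of the capillary within a shared basement membrane and are recruited by PDGF-B acting on the receptor Pdgfrb, while arteries and arterioles are wrapped in contractile smooth muscle. In a piece of whole tissue these cells are a minority, and fewer cells of a type and less RNA per cell cannot be told apart.

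Where 3 values follow each other for a group, they are those of replicates 1, 2 and 3 in that order. The libraries held 17647556 to 20813211 reads in genes. Cntnap4 measured 2.03, 3.59 and 4.91 FPKM in the WT libraries and 1.61, 1.00 and 1.48 FPKM in the KO libraries, so the groups did not overlap (log2 difference -1.05 ± 0.28, limma adjusted p = 0.220). Since the deleted part is not stated, reads outside it check no label. One library went against its label. KO replicate 1, labelled male, held Xist at 43.0 FPKM, a transcript that did not exceed 0.0346 FPKM in any other library, and had 0 reads on 4 Y-linked genes, whereas each of the other 5 libraries had 2831 to 4001. Counts over the list and the log2 differences of some genes are therefore also given without KO replicate 1. KO replicate 2 stood apart in 5 of 6 excitatory neuron markers, among them Slc17a7, the glutamate transporter of many pallial neurons, at 94.3 FPKM against 19.1 and 21.4 FPKM in the other KO libraries and 5.37 to 6.42 FPKM in WT. The exception, Slc17a6, was lowest there, at 5.40 FPKM against 11.8 to 17.0 FPKM in the other libraries, and the inhibitory markers Gad1, Gad2 and Slc32a1 did not stand out upward. Marker sums of some other cells differed between the groups without overlap. Over 6 genes each, oligodendrocyte markers were at 1036 to 1383 FPKM in WT and 618 to 930 FPKM in KO, and excitatory neuron markers at 353 to 415 and 608 to 877 FPKM. Microglial markers, also 6 genes, summed to 80.3 to 88.1 FPKM in WT and 66.9 to 72.1 FPKM in KO, whereas 7 astrocyte markers overlapped, at 417 to 470 and 415 to 467 FPKM. No marker of these 4 lists was at 0 in all libraries. Their part in the results below was not tested.

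**Figure D1:**
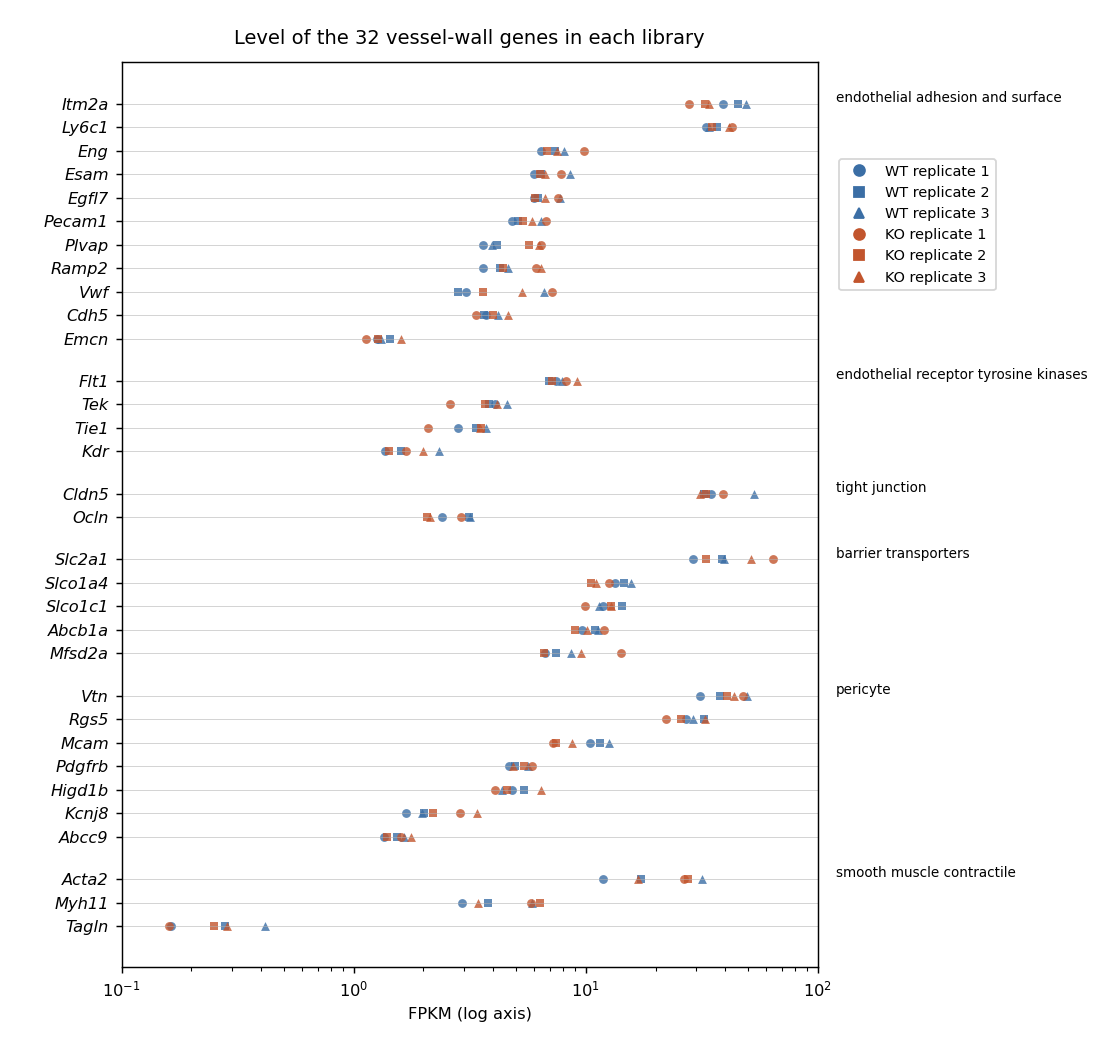
FPKM on a log axis for the 32 genes in each of the 6 libraries, grouped by role and ordered by mean level within a role; color gives the genotype and symbol shape the replicate. Most genes have WT and KO points that interleave, Slc2a1 and Vtn are among the most abundant, and Tagln lies far below the other contractile genes.

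The levels spanned a wide range. By mean FPKM over the 6 libraries, Slc2a1 ranked 1091 of all genes and Tagln 18452, and 5 of the 32 were among the 1500 genes of highest mean (Slc2a1, Vtn, Itm2a, Cldn5 and Ly6c1). Reads per gene and library ran from 6 to 4228.

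The vessel-wall genes had no common direction, with 19 of the 31 log2 differences above 0 and 12 below. None of the 31 passed the limma test at an adjusted p of 0.05, against 0.0124% of all genes tested. At an unadjusted p under 0.05, 3 were higher and 3 lower in KO, or 19.4% of the 31 in either direction, beside 15.2% of all genes tested (8.36% higher and 6.85% lower). With voom on recovered reads none passed either, with 2 higher and 3 lower at that unadjusted level (16.1%), beside 16.4% of all genes in the same fit (6.18% higher and 10.2% lower). Complete separation of the groups was found for 2 genes with higher values in KO, Plvap and Kcnj8, and for 3 with lower values, Itm2a, Mcam and Slco1a4. That is 16.1% of the 31, whereas groups were separate for 22.6% of all genes tested (11.8% higher and 10.8% lower). The median log2 difference was 0.04 over the 31 genes and 0.01 over all genes tested. Per-gene differences ran from -0.53 for Mcam to 0.59 for Plvap. Without KO replicate 1, 1 gene was higher and 4 lower at an unadjusted p under 0.05 (16.1% of the 31), beside 13.9% of all genes tested (7.56% higher and 6.33% lower). Without KO replicate 2, 6 were higher and 3 lower (29.0%), beside 13.3% of all genes (7.28% and 5.98%). Leaving out WT replicate 3 also gave 6 higher and 3 lower, beside 13.7% of all genes (7.01% and 6.71%). Groups did not overlap for 2 higher and 4 lower genes without KO replicate 1, beside 33.2% of all genes (17.3% and 15.9%), and for 7 higher and 3 lower without KO replicate 2, beside 33.4% (17.2% and 16.2%).

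**Figure D2:**
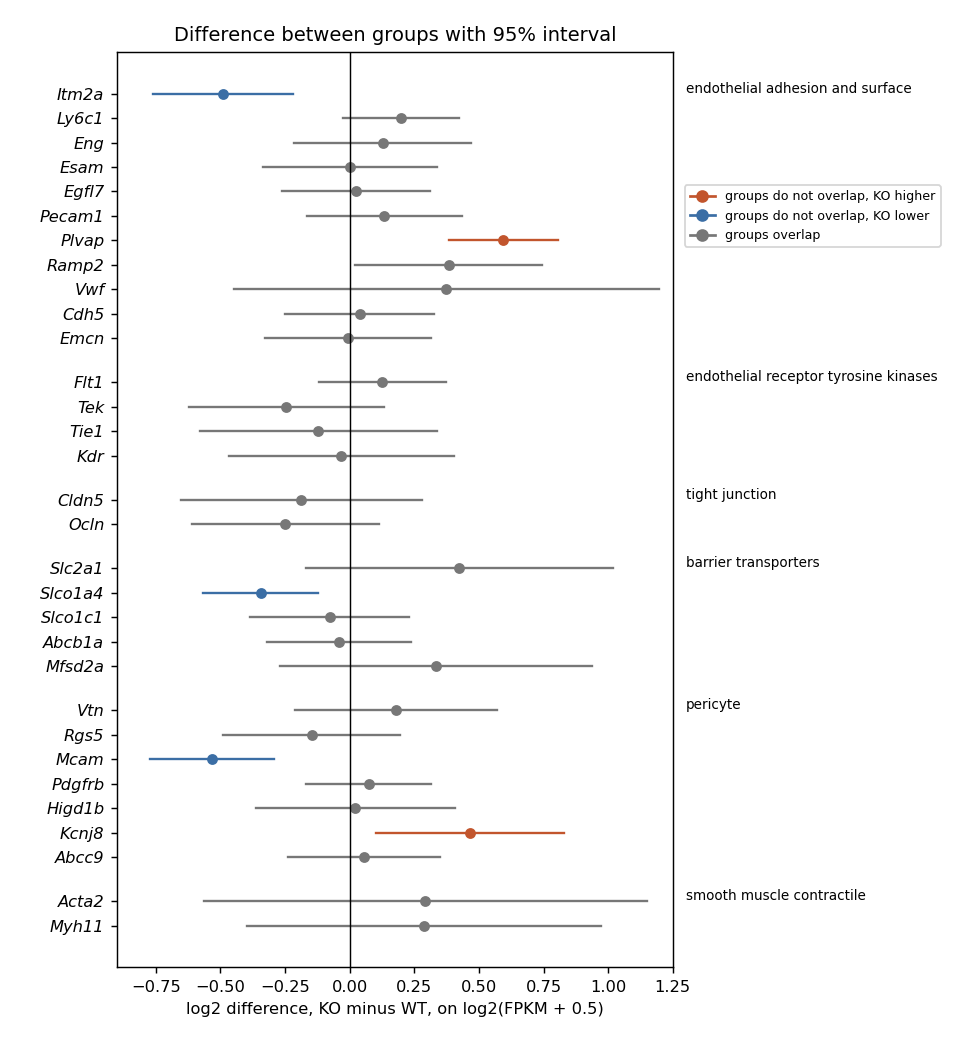
Difference between KO and WT in log2(FPKM + 0.5) for the 31 tested genes (points) with 95% intervals from limma (lines), grouped by role. The intervals of Plvap and Kcnj8 lie above 0 and those of Itm2a, Mcam and Slco1a4 below it; Ramp2 also lies above 0 although its groups overlap, and the other 25 intervals span 0.

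Among endothelial surface genes, Plvap stood highest in KO relative to WT. Plvap (ENSMUSG00000034845, chromosome 8, 71497765 to 71511752, GRCm38) encodes the protein of the diaphragms that span fenestrae and caveolae, which mature barrier endothelium largely lacks. It measured 3.60, 4.14 and 3.94 FPKM in the WT libraries and 6.45, 5.67 and 6.28 FPKM in the KO libraries. All KO libraries lay above all WT libraries, with the KO mean (6.13 ± 0.408, SD, n = 3) at 158% of the WT mean (3.89 ± 0.273). The log2 difference was 0.59 ± 0.09 (95% interval 0.38 to 0.80), the smallest p of the 31 genes, and missed the threshold (limma adjusted p = 0.184). Leaving out KO replicate 1 gave 0.56, and leaving out KO replicate 2 gave 0.65. These values rest on 132 to 241 reads per library. Plvap lies on the chromosome of Cntnap4, 41.1 Mb away.

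Fenestrated vessels lie in the choroid plexus. Its markers, summed over 9 genes, were at 34.9 to 38.8 FPKM in WT and 9.46 to 27.8 FPKM in KO. The WT sums were mostly Ttr, the thyroid hormone carrier made by the choroid plexus, at 26.9, 29.6 and 24.8 FPKM in the WT libraries and 4.01, 0.634 and 18.7 FPKM in the KO libraries. Of the 9, 3 were tested and 0 passed, with log2 differences of -2.58 for Ttr, 0.03 for Kl and 0.10 for Clic6. No marker was at 0 in all libraries, but Folr1 and Slc4a5 were at 0 in KO replicate 2. Their part in the Plvap values was not tested.

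Itm2a went the other way. Itm2a (ENSMUSG00000031239, chromosome X, 107397099 to 107403376), a membrane protein gene enriched in brain endothelium, measured 39.0, 45.4 and 48.9 FPKM in the WT libraries and 27.8, 32.7 and 34.0 FPKM in the KO libraries. Every KO library was below every WT library. The KO mean of 31.5 ± 3.29 FPKM was 70.8% of the WT mean of 44.5 ± 5.01 FPKM (log2 -0.49 ± 0.11, limma adjusted p = 0.204). It is the only one of the 32 on the X chromosome, and KO replicate 1, the library with Xist, was the lowest. Without that library the log2 difference was -0.40.

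Ramp2, which encodes the subunit that turns the calcitonin receptor-like receptor into an adrenomedullin receptor, measured 3.63, 4.26 and 4.63 FPKM in the WT libraries and 6.09, 4.38 and 6.45 FPKM in the KO libraries. KO replicate 2 lay within the WT range and the other KO libraries above it (log2 0.38 ± 0.15, limma adjusted p = 0.308). Without KO replicate 1 the log2 difference of Ramp2 was 0.32 (limma unadjusted p = 0.118). Ly6c1, a surface protein gene of brain endothelium, measured 33.0, 36.7 and 33.9 FPKM in the WT libraries and 42.9, 35.1 and 41.5 FPKM in the KO libraries, again with KO replicate 2 inside the WT range (log2 0.20 ± 0.10, limma adjusted p = 0.374). Vwf, the clotting factor stored in endothelial granules, was at 3.06, 2.81 and 6.64 FPKM in the WT libraries and 7.13, 3.61 and 5.34 FPKM in the KO libraries, and its 95% interval for the log2 difference, -0.45 to 1.20, was the widest of the surface genes.

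The genes that define endothelium most generally showed no detectable difference. Pecam1 (CD31), a junctional adhesion molecule, averaged 5.43 ± 0.845 FPKM in WT and 5.99 ± 0.691 in KO. Cdh5, the cadherin of endothelial adherens junctions, averaged 3.85 ± 0.297 and 3.99 ± 0.634 FPKM; it is the listed gene nearest to Cntnap4, 8.43 Mb away on chromosome 8. Its interval of the log2 difference was -0.25 to 0.33, and that of Pecam1 was -0.17 to 0.44. Esam, another junctional adhesion molecule, averaged 7.0 FPKM in WT and 6.95 in KO. Egfl7, a secreted factor of endothelium, averaged 6.66 and 6.77 FPKM. Emcn, a sialomucin of capillaries and veins, averaged 1.33 FPKM in both groups. Eng, the co-receptor for TGF-beta and BMP ligands, averaged 7.28 and 8.06 FPKM, with an interval of -0.21 to 0.47. The limits of all 6 intervals lay within -0.34 and 0.48, so larger log2 differences in these genes fall outside them.

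Receptor tyrosine kinases transmit the growth and quiescence signals of endothelium. Flt1 and Kdr encode VEGF receptors 1 and 2, Tek encodes the angiopoietin receptor TIE2 and Tie1 its partner. Flt1, the most abundant of the 4, measured 7.46, 6.97 and 7.89 FPKM in the WT libraries and 8.22, 7.18 and 9.20 FPKM in the KO libraries, and the groups overlapped (log2 0.13 ± 0.10, limma adjusted p = 0.588). Kdr averaged 1.77 ± 0.509 FPKM in WT and 1.70 ± 0.284 in KO. Tek measured 4.06, 3.85 and 4.57 FPKM in the WT libraries and 2.60, 3.69 and 4.16 FPKM in the KO libraries. Tie1 measured 2.81, 3.36 and 3.72 FPKM in the WT libraries and 2.09, 3.54 and 3.51 FPKM in the KO libraries. For both TIE genes the lowest of the 6 values was KO replicate 1. The log2 difference of Tek was -0.24 with all libraries and -0.07 without that one, and that of Tie1 changed from -0.12 to 0.09.

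The 2 tight junction genes both had log2 differences below 0, and their groups overlapped. Cldn5, the main claudin of the blood-brain barrier, measured 34.6, 32.4 and 53.3 FPKM in the WT libraries and 39.2, 32.9 and 31.1 FPKM in the KO libraries. WT replicate 3 was above all others, and the remaining 5 lay close together (log2 -0.19 ± 0.20, limma adjusted p = 0.674). Without WT replicate 3 the difference was 0.03. Ocln, which encodes occludin, averaged 2.90 ± 0.434 FPKM in WT and 2.37 ± 0.466 in KO (log2 -0.25, limma adjusted p = 0.476), and its groups overlapped because WT replicate 1, at 2.40 FPKM, was below KO replicate 1, at 2.91 FPKM.

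The 5 barrier transporters did not share a direction. Slco1a4 (ENSMUSG00000030237, chromosome 6, 141805440 to 141856199) encodes an organic anion transporter of brain endothelium and measured 13.4, 14.7 and 15.7 FPKM in the WT libraries and 12.6, 10.6 and 11 FPKM in the KO libraries. The groups did not overlap, though KO replicate 1 and WT replicate 1 were close. The KO mean of 11.4 ± 1.08 FPKM was 78.1% of the WT mean of 14.6 ± 1.13 FPKM (log2 -0.34 ± 0.09, limma adjusted p = 0.220). Without KO replicate 1 the log2 difference of Slco1a4 was -0.42. Slco1c1, a thyroxine transporter of the same family and 235 kb away on chromosome 6, averaged 12.5 ± 1.56 FPKM in WT and 11.9 ± 1.70 in KO, with an interval of -0.39 to 0.23. Reads that related genes of this family could share were counted by an unknown rule, so the split between such genes is uncertain. Abcb1a, the efflux pump P-glycoprotein, averaged 10.6 ± 0.891 and 10.4 ± 1.53 FPKM, with an interval of -0.32 to 0.24.

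Slc2a1 and Mfsd2a varied among KO libraries in the same way. Slc2a1 encodes GLUT1, which carries glucose across the barrier, and measured 29.2, 38.8 and 39.4 FPKM in the WT libraries and 64.1, 32.9 and 51.6 FPKM in the KO libraries. KO replicates 1 and 3 were above all WT libraries and KO replicate 2 lay inside the WT range (log2 0.42 ± 0.25, limma adjusted p = 0.462). Mfsd2a, which imports lysolipids carrying docosahexaenoic acid and restrains transcytosis, measured 6.70, 7.46 and 8.65 FPKM in the WT libraries and 14.2, 6.63 and 9.51 FPKM in the KO libraries. Here KO replicate 2 was the lowest of the 6. Without KO replicate 1 the log2 differences were 0.21 for Slc2a1 and 0.07 for Mfsd2a, and without KO replicate 2 they were 0.69 and 0.59.

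**Figure D3:**
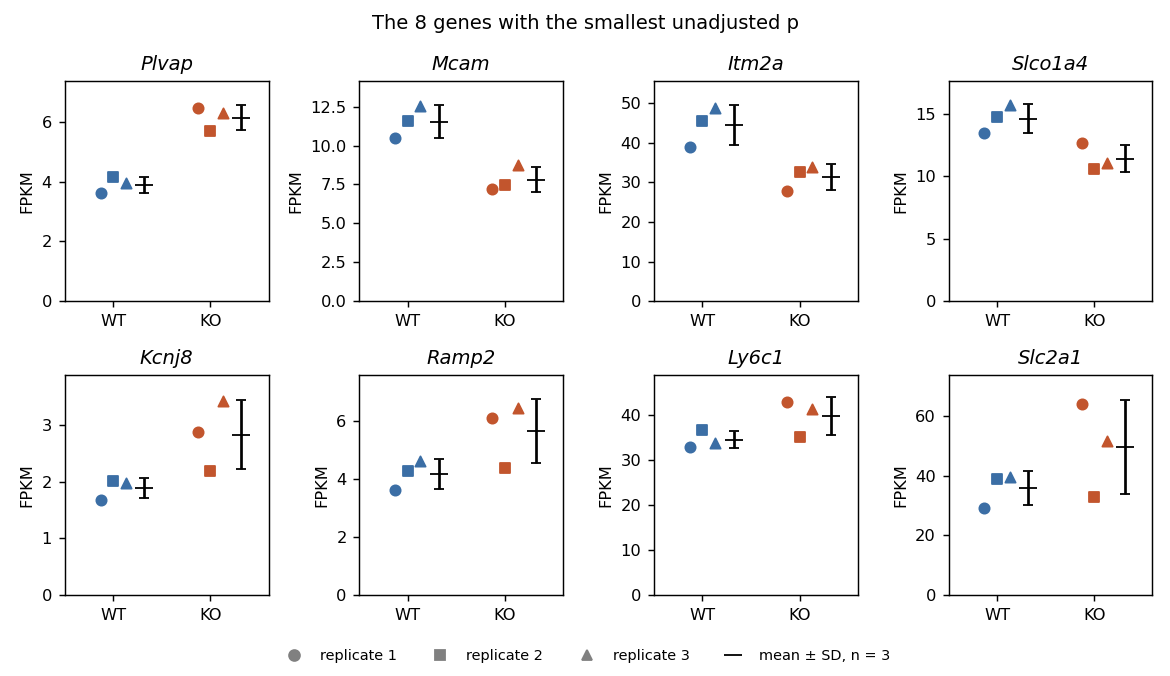
FPKM in each library for the 8 genes with the smallest unadjusted p, WT left and KO right, with symbol shape for the replicate and the mean ± SD (n = 3) beside the points; axes start at 0. The groups are separate for Plvap, Mcam, Itm2a, Slco1a4 and Kcnj8, whereas KO replicate 2 (square) sits with WT for Ramp2, Ly6c1 and Slc2a1.

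Of the pericyte genes, Mcam and Kcnj8 had groups that did not overlap, Mcam with lower and Kcnj8 with higher values in KO. Mcam (CD146; ENSMUSG00000032135, chromosome 9, 44134469 to 44142727), an adhesion molecule of pericytes, smooth muscle and some endothelium, measured 10.5, 11.6 and 12.6 FPKM in the WT libraries and 7.24, 7.45 and 8.76 FPKM in the KO libraries. The KO mean of 7.82 ± 0.824 FPKM was 67.8% of the WT mean of 11.5 ± 1.05 FPKM. The log2 difference was -0.53 ± 0.10 (limma adjusted p = 0.187), and -0.48 without KO replicate 1.

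Kcnj8 (ENSMUSG00000030247, chromosome 6, 142564837 to 142571614) encodes the pore Kir6.1 of the ATP-sensitive potassium channel of pericytes, and Abcc9 encodes SUR2, its regulatory subunit. The genes are neighbours, 16.2 kb apart. Kcnj8 measured 1.68, 2.01 and 1.97 FPKM in the WT libraries and 2.88, 2.19 and 3.41 FPKM in the KO libraries, from 79 to 154 reads, with KO replicate 2 just above the WT range. The KO mean was 150% of WT (log2 0.47 ± 0.15, limma adjusted p = 0.259). Without KO replicate 1 the log2 difference of Kcnj8 was 0.45 (limma unadjusted p = 0.0523). Abcc9 averaged 1.51 ± 0.152 FPKM in WT and 1.59 ± 0.181 in KO (log2 0.05, interval -0.24 to 0.35), and its groups overlapped. Whether the difference between genotypes was unequal for these 2 genes was not tested.

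The other pericyte genes overlapped between groups. Vtn, the matrix protein vitronectin and the most abundant of them, measured 31.0, 38.0 and 49.4 FPKM in the WT libraries and 47.6, 40.8 and 43.7 FPKM in the KO libraries, with all KO values inside the WT range (log2 0.18 ± 0.16, limma adjusted p = 0.630). Pdgfrb, the PDGF-B receptor, averaged 5.09 ± 0.494 and 5.38 ± 0.496 FPKM, with an interval of -0.17 to 0.31. Rgs5, a regulator of G-protein signalling, averaged 29.5 ± 2.70 and 26.9 ± 5.31 FPKM. Higd1b, a mitochondrial protein gene that marks pericytes, averaged 4.86 ± 0.555 and 5.01 ± 1.22 FPKM.

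Smooth muscle genes varied more between libraries than between genotypes. Acta2, smooth muscle actin, measured 11.9, 17.4 and 31.8 FPKM in the WT libraries and 26.6, 27.5 and 16.8 FPKM in the KO libraries. Myh11, the smooth muscle myosin heavy chain, measured 2.92, 3.79 and 5.85 FPKM in the WT libraries and 5.83, 6.35 and 3.42 FPKM in the KO libraries. In both genes WT replicate 3 and KO replicates 1 and 2 were high and the other 3 libraries low. The log2 differences were 0.29 ± 0.36 for Acta2 and 0.29 ± 0.29 for Myh11 (limma adjusted p = 0.730 and 0.662), and that of Acta2 was -0.03 without WT replicate 1. Tagln, the actin-binding protein transgelin, had 6 to 18 reads per library and measured 0.164, 0.280 and 0.417 FPKM in the WT libraries and 0.160, 0.250 and 0.284 FPKM in the KO libraries. On this per-length scale its mean level was far below those of Acta2 and Myh11, and it was too low to be tested.

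Meningeal and perivascular fibroblast markers, which come with larger vessels, summed over 9 genes to 15.2, 25.4 and 31.9 FPKM in the WT libraries and 24.9, 23.4 and 23.0 FPKM in the KO libraries. The sum includes Pdgfra, which is not specific to fibroblasts. Pdgfra alone was at 7.62, 8.70 and 9.49 FPKM in the WT libraries and 8.37, 6.26 and 7.41 FPKM in the KO libraries. WT replicate 1 was the lowest library for this sum, as it was for Acta2 and Myh11, and WT replicate 3 the highest for the sum and for Acta2. None of these 9 genes was at 0 in all libraries, and of the 8 tested 0 passed.

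The extremes of the list fell unevenly over the libraries. WT replicate 1 had the lowest of the 6 values for 15 of the 32 genes and the highest for 0, against 12.9% and 12.3% of all genes tested. WT replicate 3 was highest for 13 and lowest for 0, against 18.2% and 17.4% of all genes tested. KO replicate 1 was highest for 9, beside 15.5% of all genes tested, among them Slc2a1, Mfsd2a, Vwf, Eng, Pecam1 and Plvap. It was lowest for 10, beside 18.5%, among them Tek, Tie1, Cdh5, Emcn, Rgs5 and Mcam. KO replicate 3 was highest for 8, beside 12.7% of all genes, including Cdh5, Flt1, Kcnj8, Abcc9 and Rgs5. KO replicate 2 was highest for 1 and lowest for 4, against 24.9% and 21.0% of all genes tested. For WT replicate 2 the counts were 1 and 2, against 16.3% and 19.1%. The median deviation of the 32 genes from their WT mean, in log2 units, was -0.14, 0.01 and 0.14 for the WT libraries and 0.15, -0.08 and 0.10 for the KO libraries, so the groups overlapped.

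The sum of red blood cell transcripts was highest in the same KO libraries as Slc2a1, Mfsd2a, Ramp2 and Kcnj8, named after their values were seen. KO replicates 1 and 3 were also highest for Plvap, Ly6c1 and Flt1. How many of all genes had this order was not counted, so the match has no background. Other listed genes, among them Tek, Tie1, Cdh5 and Rgs5, were lowest in KO replicate 1. Summed over the 4 globin genes on the list and Alas2, the heme synthesis enzyme of red cell precursors, these transcripts were at 65.2, 76.1 and 58.9 FPKM in the WT libraries and 144, 77.5 and 143 FPKM in the KO libraries. Hbb-bs differed from the sum, at 49.4, 29.9 and 29.7 FPKM in the KO libraries and 20.6 to 22.7 FPKM in WT. All 5 genes had positive log2 differences, with a median of 0.70, and 0 passed. The split of reads between the near-identical globin copies is uncertain. How much blood stayed in the vessels of each piece is not recorded in the labels, and its part in the levels of the vessel genes was not tested. Markers of perivascular macrophages, summed over 5 genes, were at 2.07 to 4.14 FPKM in WT and 4.37 to 4.81 FPKM in KO, with 3 genes tested and 0 passed.

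**Figure D4:**
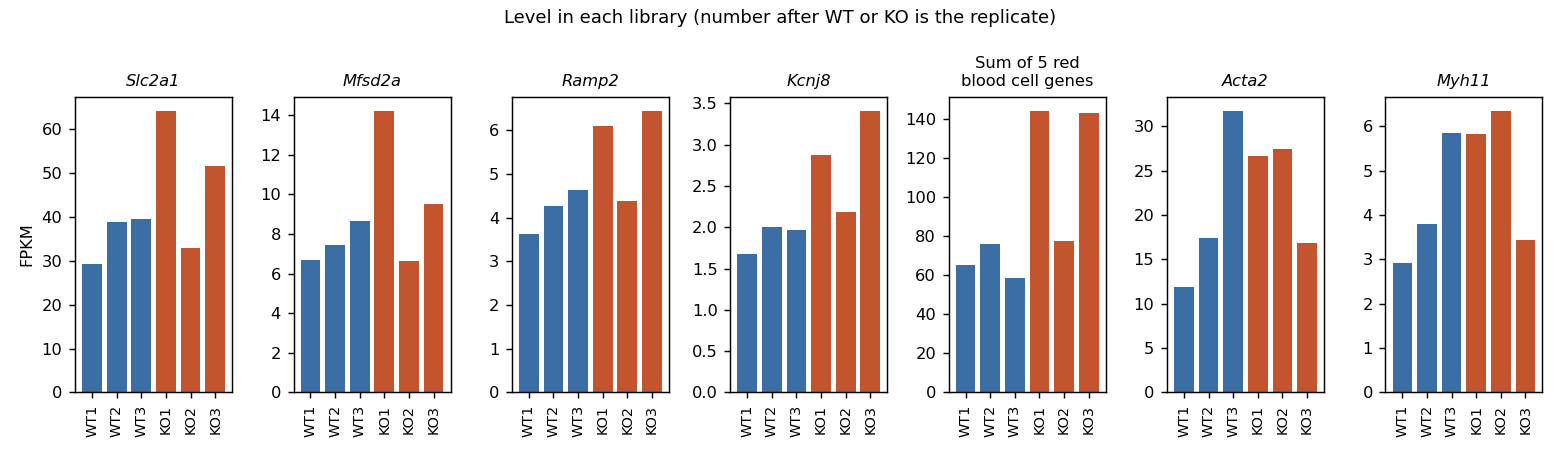
Bars give FPKM in each library for 4 vessel genes, for the sum of 5 red blood cell genes and for the contractile genes Acta2 and Myh11; WT is blue, KO orange, and every axis starts at 0. KO replicates 1 and 3 are highest for the 4 vessel genes and the red blood cell sum, while Acta2 and Myh11 are high in WT replicate 3 and KO replicates 1 and 2. The 4 vessel genes were picked after their values were seen.

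Other genes of the vessel wall and its signalling were taken from 8 lists. Together they held 140 tested genes beside the 32, and 0 passed over all genes in limma. At an unadjusted p under 0.05, 4 were higher and 7 lower in KO, a smaller share than the 15.2% of all genes tested (8.36% higher and 6.85% lower). Their median log2 difference was 0.02.

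Of 17 tested ligands and partners of the VEGF, angiopoietin and Notch receptors 0 passed. An unadjusted p under 0.05 was reached by 0 of them, beside 15.2% of all genes tested. The differences ran from -0.18 to 0.15 with a median of 0.01. The main VEGF ligand, Vegfa, measured 19.3, 19.8 and 22.7 FPKM in the WT libraries and 17.5, 14.7 and 22.9 FPKM in the KO libraries. Notch1 was the only gene of that list whose groups did not overlap, whereas groups were separate for 22.6% of all genes tested. It was at 2.27 to 2.59 FPKM in WT and 2.01 to 2.20 FPKM in KO (log2 -0.17, limma adjusted p = 0.464).

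Among 18 PDGF-B and TGF-beta pathway genes, 2 were higher and 2 lower at an unadjusted p under 0.05, a level that 15.2% of all genes reached, and 0 passed. The ligand gene Tgfb3 measured 2.42, 2.50 and 2.87 FPKM in the WT libraries and 3.49, 3.74 and 3.67 FPKM in the KO libraries, with the groups apart (log2 0.42 ± 0.09, limma adjusted p = 0.200). The type I receptor gene Tgfbr1 was at 6.45 to 8.20 FPKM in WT and 4.98 to 6.19 FPKM in KO (log2 -0.33, limma adjusted p = 0.279). Smad5, a transducer of BMP signals, had a log2 difference of -0.22. Several cell types of brain express these genes, so their values are not those of vessels alone.

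Wnt signalling from neural cells to endothelium maintains the barrier through Fzd4 and beta-catenin. Of 15 tested genes of this pathway, 1 was higher and 3 lower at an unadjusted p under 0.05 (15.2% of all genes), and 0 passed. The higher one, named after its values were seen, was the transcription factor gene Tcf7, at 2.56, 2.73 and 1.81 FPKM in the WT libraries and 3.79, 3.91 and 2.67 FPKM in the KO libraries, with overlap (log2 0.46 ± 0.18, limma adjusted p = 0.299). Wnt7b, a ligand made by neural cells, measured 6.56, 7.39 and 7.45 FPKM in the WT libraries and 5.59, 5.19 and 5.60 FPKM in the KO libraries. The groups did not overlap (log2 -0.36 ± 0.08, limma adjusted p = 0.203). Ctnnb1, beta-catenin, was at 87.0 to 96.9 FPKM in WT and 76.6 to 80.8 FPKM in KO (log2 -0.21), and Apcdd1, a Wnt target and inhibitor, at 8.19 to 10.1 and 6.07 to 7.54 FPKM (log2 -0.34). The receptor gene Fzd4, also named after its values were seen, had a log2 difference of 0.10. In the list 6 differences were above 0 and 9 below, with a median of -0.01. Genes of this list are also expressed outside vessels, so their values do not measure Wnt signalling in endothelium.

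Of 16 endothelial transcription factor genes 0 passed. Klf4, a factor induced by blood flow, measured 1.16, 2.06 and 2.01 FPKM in the WT libraries and 3.14, 2.07 and 3.46 FPKM in the KO libraries. KO replicate 2 was almost level with the higher WT libraries (log2 0.60 ± 0.23, limma adjusted p = 0.294). The ETS family members Erg and Ets1, both active in endothelium, had log2 differences of 0.29 and -0.27.

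For 33 other endothelial and barrier genes the median was -0.04. At an unadjusted p under 0.05, 0 were higher and 2 lower, beside 8.36% and 6.85% of all genes tested. None passed. Cgn, the junction protein cingulin, measured 1.97, 2.09 and 1.99 FPKM in the WT libraries and 1.52, 0.991 and 1.47 FPKM in the KO libraries, below WT in each KO library (log2 -0.48 ± 0.15, limma adjusted p = 0.241). Slc16a1, the monocarboxylate transporter MCT1, which oligodendrocytes also express, was at 10.5 to 14.9 FPKM in WT and 9.04 to 10.4 FPKM in KO (log2 -0.34).

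Arterial and venous endothelial genes had the most positive median of the 8 lists, 0.20 over 14 genes. Of these, 0 reached an unadjusted p under 0.05, beside 15.2% of all genes tested. Efnb2, an arterial ephrin that neurons also make, measured 7.67 to 10.4 FPKM in WT and 9.65, 17.3 and 10.9 FPKM across the KO libraries. Gja4, an arterial connexin, and Alpl, a phosphatase of arterial and capillary endothelium, had log2 differences of 0.26 and 0.21. For 18 other pericyte and smooth muscle genes the median was 0.09, and 0 reached that unadjusted level. In that list Atp13a5, a pericyte marker, was at 4.18 to 4.44 FPKM in WT and 3.65 to 4.09 FPKM in KO. The contractile genes Lmod1 and Mustn1 had log2 differences of 0.53 and 0.36. The median of 12 basement membrane genes was 0.03, again with 0 at that level, and Col4a2, a collagen IV chain, had a log2 difference of -0.13. Sparc had the lowest difference of that list, -0.38, and -0.71 without KO replicate 1. It measured 226, 288 and 279 FPKM in the WT libraries and 318, 111 and 231 FPKM in the KO libraries, with overlap.

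**Figure D5:**
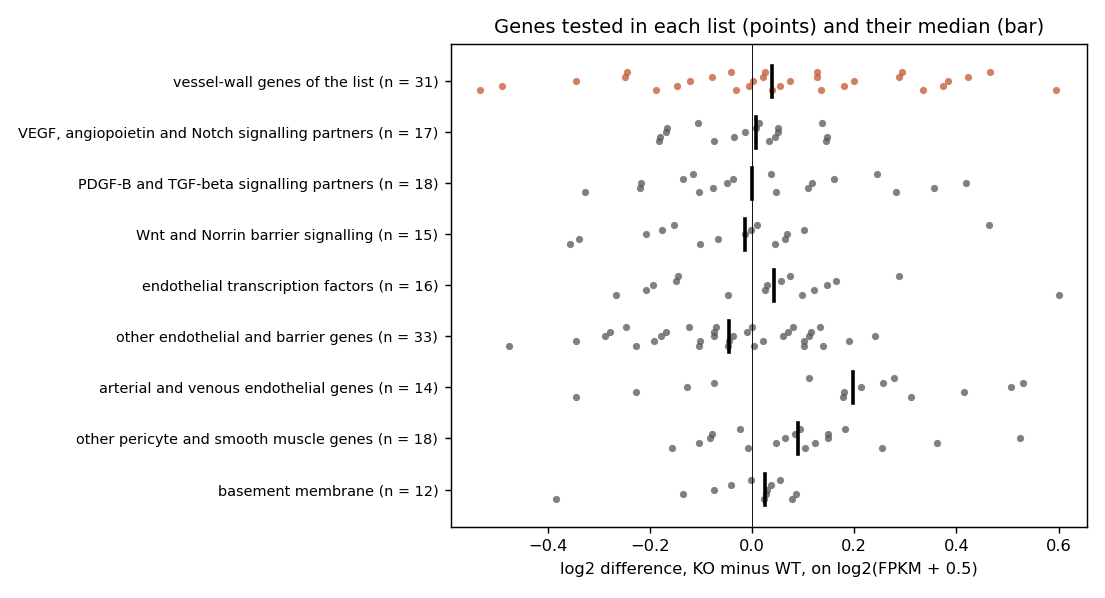
Difference between KO and WT in log2(FPKM + 0.5) for every tested gene (points) of the 31 vessel-wall genes and of 8 further lists, with the median of each list as a bar; a gene may stand in more than one list. The medians lie between -0.04 and 0.20, and points scatter on both sides of 0 in every list.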

How the data were processed

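The authors deposited 1 table of FPKM values for 6 samples, with gene symbol, GRCm38 (mm10, per the submitters' processing notes) coordinates and gene length. No source used here gives the aligner, counting program, annotation release or strand setting. All sample columns were matched by name, leaving 0 unmatched. FPKM multiplied by the deposited gene length gave whole multiples of 1 step per library for 100% of nonzero values (tolerance 0.01), taken as reads. The deposited library scaling equals median-ratio size factors over the 20689 genes above 0 in all libraries, within 1e-06 percent.

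The test was limma-trend with robust moderation (limma 3.58.1, R 4.3.3) on log2(FPKM + 0.5), over 16155 genes (mean FPKM 0.5 or more), with Benjamini-Hochberg adjustment over all of them and a threshold of 0.05. Differences are KO minus WT with standard errors, and this scale understates changes of low genes. FPKM is given as mean ± SD (n = 3). An exact two-sided permutation test of Cntnap4 gave p = 0.1, the smallest that 3 against 3 samples allow. The fit was run on simulated data with known differences, which checks the code. Those data do not mimic the uneven cell markers of these libraries.

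Values in every sample are given for genes that did not overlap between groups, for the 8 smallest unadjusted p and for the most abundant gene of each role. Vwf, Tek, Tie1, Mfsd2a, Myh11 and Tagln were given in full after their values were seen. Further lists name up to 3 genes with the smallest p and a mean of 1 FPKM or more. Members and lists were chosen with earlier results of these data known. The fit was repeated with a pseudocount of 0.1 or 1, without the filter, with a minimum of 5 FPKM, an equal FPKM sum, quantile normalization, moderation without trend or robust settings, array weights, the replicate number as a block, voom on recovered reads and leaving out each library.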

Additional observations from a re-analysis of the deposited data

How the results depend on the processing

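No listed gene passed an adjusted p of 0.05 under any of the 17 alternatives (515 values, since a filter at 5 FPKM leaves out the low genes; lowest adjusted p = 0.0736, Plvap), and 18 of the 31 kept their sign in all. Plvap ranged from 0.54 to 0.65, Mcam from -0.61 to -0.45, Itm2a from -0.58 to -0.40, Slco1a4 from -0.42 to -0.29 and Kcnj8 from 0.34 to 0.61. Median-ratio scaling equals the deposited one, so it changed nothing.

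Of all genes, 2 passed. The count was 0 with a pseudocount of 0.1, with no filter, with a filter at 5 FPKM and with voom, 5 with an equal FPKM sum, 1 with quantile normalization and 0 to 9 without single libraries. Genes of the list that were higher at an unadjusted p under 0.05 numbered 3, against 1 with the filter at 5 FPKM, 5 with array weights and 1 to 6 without single libraries, and those lower 3, against 3 to 4. Non-overlapping genes numbered 2 higher and 3 lower, against 1 higher with the filter at 5 FPKM. Without single libraries they numbered 2 to 7 higher and 3 to 5 lower. Groups were separate for 22.6% of all genes with all libraries, 33.2% without KO replicate 1 and 33.4% without KO replicate 2. At an unadjusted p under 0.05 these shares were 15.2%, 13.9% and 13.3%. No share over all genes is given for the filter at 5 FPKM or array weights, so those counts have no background. The same holds for fits without WT replicate 1 or 2 or KO replicate 3, and for non-overlap without WT replicate 3. Counts without a background are not read as results about the list. The list median was -0.01 to 0.14 without single libraries.

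With the replicate number as a block 0 genes passed, and the list median was 0.04. Deviations of same-numbered samples correlated at -0.09, -0.14 and -0.07, and those of differently numbered samples at -0.04 to 0.12. The labels do not state a pairing, and these few correlations cannot decide whether the samples share one.

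Signs turned for 13 genes, Acta2 (0.29) and Cldn5 (-0.19) among them. With an equal FPKM sum these were Cdh5 (-0.013), Esam (-0.053), Egfl7 (-0.030) and Higd1b (-0.030), and with voom Cdh5 (-0.012), Esam (-0.051), Egfl7 (-0.024) and Higd1b (-0.023). Quantile normalization turned Esam (-0.0053) and Emcn (0.018), and array weights Emcn (0.056) and Kdr (0.13). Without single libraries the ranges were -0.062 to 0.14 for Cdh5, -0.092 to 0.15 for Esam, -0.016 to 0.24 for Eng, -0.11 to 0.075 for Emcn and -0.055 to 0.13 for Egfl7. They were -0.16 to 0.14 for Kdr, -0.23 to 0.091 for Tie1, -0.32 to 0.034 for Cldn5, -0.14 to 0.042 for Slco1c1, -0.15 to 0.052 for Abcb1a, -0.0052 to 0.12 for Abcc9, -0.15 to 0.14 for Higd1b and -0.026 to 0.66 for Acta2. The cause was not tested. With 3 samples a group, an interval spanning 0 does not show equal levels.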
